A study of Mus musculus with 8 samples.

Results

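Insl3 encodes insulin-like peptide 3, a relaxin-family hormone of the testis, and it was described here together with 6 genes whose ratios moved with it between mouse pairs. These were Hsd3b1, Selenop, Fabp3, Ptgds, Agt and Lyz2. Each gene was found by its name, or an older symbol, among the non-control spots of the arrays, and the set makes up 7 of the 16966 genes measured. The genes were picked from these same ratios. The ratios and levels below are therefore a description, and no test supports them.

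Adult male C57BL/6J mice, labelled 21 weeks of age, received di-(2-ethylhexyl) phthalate (DEHP), a plasticiser, at 200 mg/kg/day in corn oil by gavage for 21 days. The control mice received corn oil alone, and each group held 4 mice. RNA was taken by laser capture from the right testis, from the middle layer of the tubule epithelium, which is labelled as rich in Sertoli cells, with 1 cap per mouse and 2 rounds of amplification. In the labels, 1 line of the extraction protocol names Leydig cells instead as the captured cells. DEHP mouse 1 was hybridised with vehicle mouse 2 (pair 1), DEHP mouse 2 with vehicle mouse 3 (pair 2), DEHP mouse 3 with vehicle mouse 4 (pair 3) and DEHP mouse 4 with vehicle mouse 1 (pair 4). Each pair was run on 2 Agilent arrays with the dyes swapped, 8 arrays in all. All 4 arrays with DEHP in Cy5 were on 1 slide and all 4 with DEHP in Cy3 on the other, so slide and dye cannot be told apart.

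Insl3 is made in Leydig cells, the steroid-producing cells that lie between the tubules, and acts through the receptor RXFP2. Its best known role is the descent of the testis. Leydig cells take up cholesterol with the help of STAR and turn it into testosterone through a series of enzymes, of which 3-beta-hydroxysteroid dehydrogenase is 1. Tissue macrophages lie beside them in the same space between the tubules. In RNA of a captured area, fewer cells of a type and less RNA per cell cannot be told apart.

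Between 49.8% and 59.5% of spots were well above background per channel, and no spot was saturated (0 in all). Of 41174 probes, 22971 were well above background often enough to be kept. All 7 genes were well above background in 16 of 16 channels. Precision is limited by the 4 mice in a group and their arrays.

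What a single probe reads decides what a value means here, so stretches of the probes that share a locus or an accession are shown. The first 30 of 60 bases are given, as the array files list them.
Insl3 probe, mm7 chr8:70157953-70158012, plus strand: ctcctggctatgtcattgcaacaacccagt
Probe named Jak3 that also lists the Insl3 accession, mm7 chr8:70157730-70157789, plus strand: tggctagagcagagacatctcctgcacgcg
Lyz2 probe used, mm7 chr10:116785279-116785338, minus strand: cttaagttccttcattcacactaactctga
Second Lyz2 probe, mm7 chr10:116790004-116790063, minus strand: aacgttgtgagtttgccagaactctgaaaa
Lyz1 probe that also lists the Lyz2 accession, mm7 chr10:116796083-116796142, minus strand: aaatacaagaactgtttataggagaccagt

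The other probes lie, in mm7, at chr3:98647842-98647901 (Hsd3b1, minus strand), chr15:3106281-3106340 (Selenop, plus), chr4:129760011-129760070 (Fabp3, plus), chr2:25474633-25475164 (Ptgds, minus) and chr8:123143932-123143991 (Agt, minus). The Ptgds probe of 60 bases spans 532 bases of the genome. An exon or UTR annotation of this build was not used here. The longest run of letters that any of the 7 probes shared with a probe of another gene was 12 to 15 bases. Only probes were compared, so binding to transcripts of related genes was not tested. In RefSeq's GRCm38.p6, Insl3 lies inside the span of Jak3, and both end at the same base. The Jak3-named probe that starts 223 bases before the Insl3 probe had log2 ratios of 0.074, 0.72, -0.51 and -0.026 in pairs 1 to 4. The other Jak3 probe was well above background in 1 of 16 channels. The second Lyz2 probe, which starts 4725 bases from the one used, was well above background in 0 of 16 channels, so each of the 7 genes rests on 1 probe.

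Since the genes moved together, the 250 bases before the start sites in the RefSeq promoter table (GRCm38.p6) were searched on both strands. All 7 genes matched, with 9 entries because Selenop has 3. AAGGTC, the core of sites for the steroidogenic nuclear receptor NR5A1, was found before 3 of the 7 genes: Insl3 with 2 matches, Ptgds with 1 and 1 entry of Selenop with 1. Counted by entry, it was found before 3 of the 9 and before 10.6% of all 32851 entries. AGGTCA, the half-site of many nuclear receptors, which overlaps AAGGTC by 5 letters where both occur, was before 0 of the 7 genes and in 4607 of all entries. A direct repeat of AGGTCA with 1 base of any kind between, a form bound by PPAR receptors, was before 0 of the 7 and 0.0335% of all. TATAAA was found before 2 of the 9 entries, that of Agt and 1 of Selenop, against 12.4% of all entries. A match is a description of letters and shows no binding.
The Insl3 windows of 30 bases are shown with the AAGGTC letters, read on either strand, in capitals, followed by the Agt bases with TATAAA in capitals.
Insl3, chr8:71689104-71689133, plus strand, 130 bases from the match to the start site: ggagaggacttcAAGGTCccaagctggaca
Insl3, chr8:71689150-71689179, plus strand, 84 bases from the match to the start site: gactcgagcctcGACCTTttgggtgctgct
Agt, chr8:124569707-124569956, minus strand: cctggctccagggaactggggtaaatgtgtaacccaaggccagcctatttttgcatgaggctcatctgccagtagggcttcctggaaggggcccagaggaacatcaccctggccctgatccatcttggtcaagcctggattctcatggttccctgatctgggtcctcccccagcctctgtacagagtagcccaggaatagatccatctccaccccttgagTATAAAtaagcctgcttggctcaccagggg

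Insl3 had a wide swing between pairs. Its log2 ratio of DEHP over vehicle was -1.04 in pair 1, 2.36 in pair 2, -1.49 in pair 3 and -0.25 in pair 4. As folds, the DEHP mouse held 5.12 times the vehicle mouse's level in pair 2, and the vehicle mouse held 2.05, 2.81 and 1.19 times the DEHP mouse's level in pairs 1, 3 and 4. The range over pairs was 3.85 log2 units, rank 1 of 22971 probes here and rank 87 in Agilent's processed ratios, and the SD was 1.72 (n = 4 pairs). Over all kept probes the median range was 0.39 and the median SD 0.17. The mean ratio over the 4 pairs was -0.11. Pair 2 alone was above 0. Without pair 2 the range was 1.24, rank 353. The probe next in range, 1 of 4 for Msl1 and named after its values were seen, was high in pair 1 instead, with 2.43, 0.25, -0.83 and 0.096; the others for Msl1 had ranges of 0.34 to 0.86.

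The arrays with swapped dyes gave nearly the same swing. In pair 2 the Insl3 ratio was 2.21 on the array that carried DEHP in Cy5 and 2.50 on its dye swap. In pair 3 it was -1.60 and -1.39. The largest gap between dye orientations was 0.30 for Insl3, which is also the largest over all 7 genes. In every one of the 7 genes the range over pairs was at least 8.99 times its own largest gap between dyes.

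Hsd3b1, the 3-beta-hydroxysteroid dehydrogenase of Leydig and adrenal cells, had log2 ratios of -0.30, 1.53, -0.92 and -0.21 in pairs 1 to 4. All 8 of its arrays had the sign of Insl3. Its range was 2.45, rank 9, and its SD 1.05 (n = 4 pairs). Without pair 2 the range was 0.70 and the SD 0.38.

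Selenop, which encodes the plasma protein that carries selenium to tissues, had log2 ratios of -0.61, 1.72, -1.40 and -0.024. It was the closest to Insl3 of all probes, with a root mean square difference of 0.46 over the 8 array ratios, where the median probe was at 1.51. In pair 4 its arrays straddled 0, at 0.038 and -0.087. Its range of 3.11 was rank 4.

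Agt, the angiotensinogen gene, source of the angiotensin peptides, had log2 ratios of -0.54, 2.18, -0.73 and -0.32. It was the next closest to Insl3, at 0.47, and shared its sign on 8 of 8 arrays. Pair 2 stood far above the other pairs in Agt, and its range of 2.91 was rank 6.

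Fabp3, a carrier of fatty acids in the cytoplasm, had log2 ratios of -0.19, 1.91, -0.98 and -0.55. Ptgds, a lipocalin that makes prostaglandin D2, had 0.075, 1.39, -0.93 and -0.44. Fabp3 shared the sign of Insl3 on 8 of 8 arrays and Ptgds on 6 of 8. The Ptgds ratio in pair 1 was the only one above 0 in that pair.

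Lyz2, the lysozyme of macrophages and other myeloid cells, had log2 ratios of -0.12, 1.40, -1.72 and 0.62. It departed from Insl3 in pair 4, where both of its arrays were above 0, at 0.71 and 0.54, and those of Insl3 below, at -0.34 and -0.17. Its largest swing was in pair 3 rather than pair 2. The Lyz1 probe, which shares the Lyz2 accession and was well above background in 8 of 16 channels, had -0.060, 0.50, -0.38 and 0.32.

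**Figure D1:**
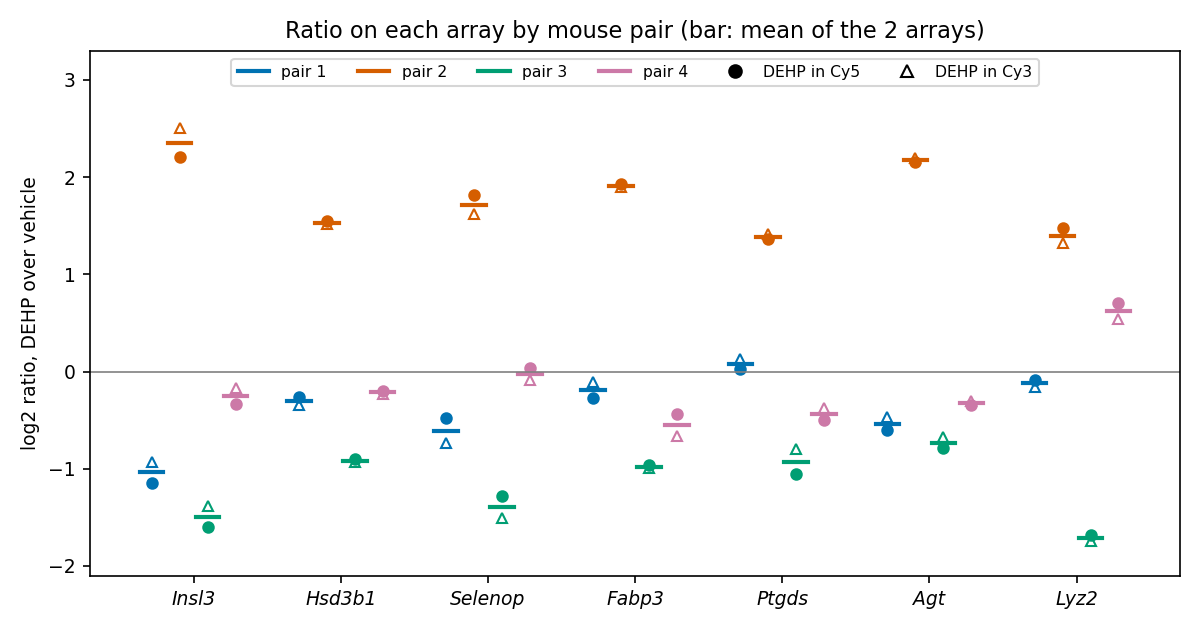
The log2 ratio of DEHP over vehicle is plotted for the 7 genes on every array, with filled circles for DEHP in Cy5, open triangles for DEHP in Cy3 and bars for the mean of a pair. Pair 2 is the highest and pair 3 the lowest for 7 of 7 genes, and the arrays of a pair lie within 0.30 of each other.

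Pair 2 gave the highest and pair 3 the lowest ratio in 7 of 7 genes. The share of all kept probes with this order was not counted. A looser pattern, above 0 in pair 2 and below 0 in pair 3, held for 23.4% of them. With both ratios past 0.5 log2 units it held for 0.222% of them and for 7 of 7 genes. The genes were chosen for moving with Insl3, so their order follows from the choice. The size of the pair 2 ratio depended on the background correction. With normexp fitted on all spots, where a few spots of very high background on its arrays raised every spot, it was 2.23 for Insl3, 0.58 for Hsd3b1, 1.34 for Selenop, 1.27 for Fabp3, 1.06 for Ptgds, 1.16 for Agt and 0.84 for Lyz2. All 7 stayed above 0. Of the 6 genes other than Insl3, 4 had its sign in all 4 pairs, and 3 had it on all 8 arrays. Over all other kept probes these shares were 7.32% and 2.67%, but the genes were chosen for this pattern and the counts say nothing further. A range of at least 1 log2 unit over pairs held for 7 of 7 genes and for 5.93% of kept probes. Without pair 2 it held for 4 of 7 genes and 4.36% of probes: the ranges of Hsd3b1, Fabp3 and Agt were then 0.70, 0.79 and 0.41. Without pair 2 the SD over pairs was 0.69 for Selenop, 0.39 for Fabp3, 0.50 for Ptgds and 0.20 for Agt, and for Lyz2 it was lowest without pair 3, at 0.76. No gene passed the limma test of DEHP against vehicle: 0 of the 7 had an adjusted p under 0.05. The same held for all probes, with 0 of 22971 called (0%). An unadjusted limma p under 0.05 was found for 1190 probes (5.18%) and 0 of the 7. The 7 were chosen for ratios that swing between pairs, so their own counts in this test say nothing further. The smallest adjusted p over all probes was 0.921.

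**Figure D2:**
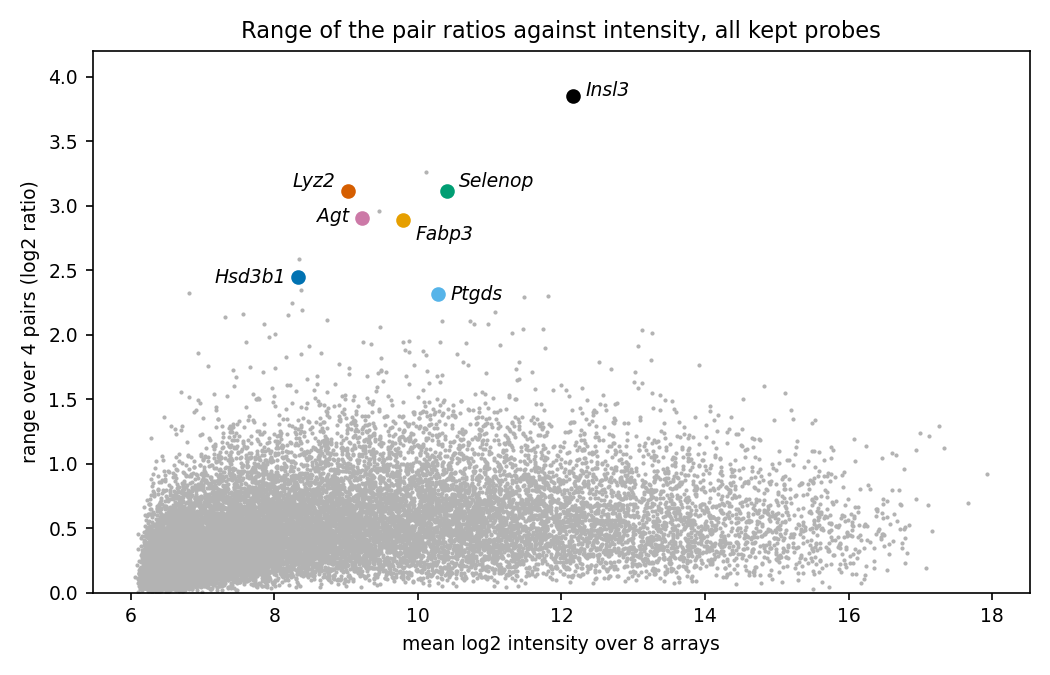
The range of the pair ratio (log2, 4 pairs) is plotted against mean log2 intensity over 8 arrays for the 22971 kept probes in grey, with the 7 genes as large labelled points. Insl3 is at the top with a range of 3.85, and the 7 genes lie between 2.31 and 3.85, where the 99th percentile of all probes is 1.40.

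The separate channels show in which mice the captured RNA was high or low, as mean log2 intensity of a mouse's 2 channels. With 1 cap per mouse, the mouse, the captured area and the amplification cannot be told apart. Both channels of a mouse come from the same cap, so the gap between them leaves out differences of capture. For Insl3, DEHP mice 1 to 4 had 10.99, 13.32, 11.74 and 12.36, and vehicle mice 1 to 4 had 12.61, 12.02, 10.97 and 13.23. DEHP mouse 2 and vehicle mouse 4 were the highest and lay 0.088 apart, less than the gap of 0.26 between the channels of a mouse. DEHP mouse 1 and vehicle mouse 3 were the lowest and lay 0.021 apart, again within their channel gap of 0.12. Vehicle mouse 2 and DEHP mouse 3 could not be ordered either. The other 4 steps in the order of the 8 mice were larger than the channel gap. High and low mice thus occurred in both groups: the span was 5.04-fold among DEHP mice and 4.81-fold among vehicle mice. The group means were 12.10 ± 0.99 and 12.21 ± 0.96 (SD, n = 4 mice each).

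The high mouse of pair 2 was the DEHP mouse and its partner was the lowest vehicle mouse, while in pair 3 the vehicle mouse was the high one. For Insl3, pair 2 therefore set a high level over a low one, and pair 3 a lower level over a high one. DEHP mouse 3 was among the 3 lowest mice for 3 of the 7 genes. Hsd3b1 had 7.49, 8.98, 8.19 and 8.69 in DEHP mice 1 to 4 and 8.90, 7.80, 7.45 and 9.11 in vehicle mice 1 to 4. Selenop had 9.45, 11.25, 9.87 and 10.88 in the DEHP mice and 10.90, 10.06, 9.54 and 11.27 in the vehicle mice. For both genes, as for Insl3, vehicle mouse 4 and DEHP mouse 2 were the highest pair of mice, and vehicle mouse 3 and DEHP mouse 1 the lowest.

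Fabp3 levels were 9.09, 10.68, 9.60 and 9.90 in the DEHP mice and 10.45, 9.28, 8.77 and 10.58 in the vehicle mice. Agt levels were 8.18, 10.12, 9.58 and 9.26 in the DEHP mice and 9.58, 8.72, 7.94 and 10.31 in the vehicle mice. Over the 8 mice Agt spanned 5.17-fold, Insl3 5.12-fold and Hsd3b1 3.15-fold. Agt and Insl3, ranks 4 and 5 of all kept probes in this range, cannot be ordered, since quantile normalization gave log2 ranges of 2.35 and 2.41. DEHP mouse 3 was above DEHP mouse 4 in Agt alone among the 7.

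Ptgds levels were 9.77, 10.85, 10.26 and 10.28 in the DEHP mice and 10.72, 9.69, 9.46 and 11.19 in the vehicle mice. Its DEHP mice spanned 2.11-fold and its vehicle mice 3.31-fold. Lyz2 levels were 8.34, 10.14, 8.05 and 9.65 in the DEHP mice and 9.02, 8.47, 8.74 and 9.77 in the vehicle mice. The order in Lyz2 differed at the low end, where DEHP mouse 3 was lowest, and vehicle mouse 3, the lowest mouse for Insl3, was the fourth from the bottom.

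DEHP mouse 2 and vehicle mouse 4 were among the 3 highest mice for 7 of 7 genes, and vehicle mouse 1 for 6 of 7. DEHP mouse 1 was among the 3 lowest for 7 of 7, vehicle mouse 3 for 6 and vehicle mouse 2 for 5. DEHP and vehicle mice overlapped for 7 of 7 genes. The share over all kept probes was not counted, so this overlap is not read as a trait of the 7. The group means differed by at most 0.15 (log2). That limit moves with the pairs included: without pair 2, the mean ratio was below 0 for 7 of 7 genes, from -0.93 for Insl3 to -0.40 for Lyz2. Without pair 3 it was above 0 for 7 of 7, from 0.34 for Hsd3b1 to 0.63 for Lyz2. The mouse ranks and these signs follow in part from choosing genes that moved with Insl3 between pairs. Of 49 steps between neighbouring mice over the 7 genes, 34 were larger than the larger channel gap of the mice compared and 15 were not. A range of at least 1 log2 unit over the 8 mice held for 7 of 7 genes and for 4.31% of kept probes.

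**Figure D3:**
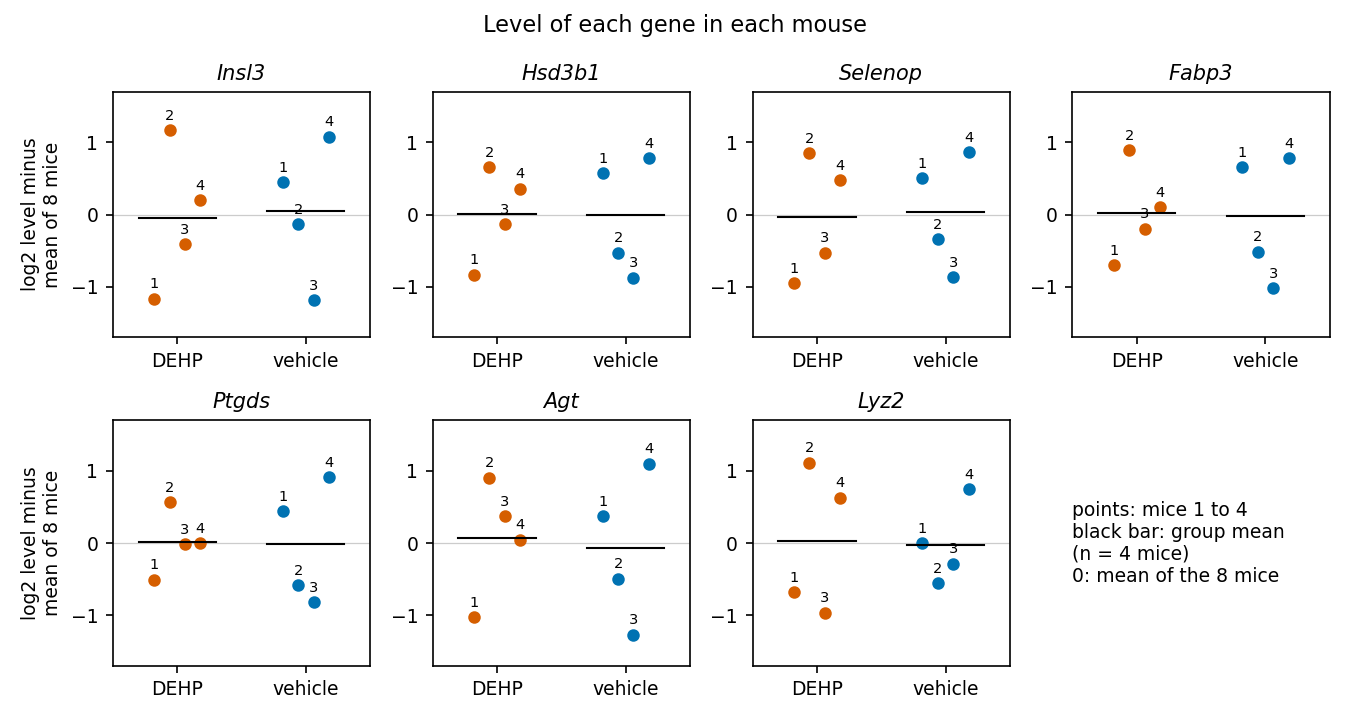
Each panel plots 1 gene's log2 level in each of 8 mice minus their mean, with the mouse number above the point and the group mean (n = 4) as a bar. Mouse 2 of the DEHP group and mouse 4 of the vehicle group are high in every panel, and the group means differ by at most 0.15.

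Of genes outside the set, those nearest to Insl3 over the 8 array ratios were Serpina3g, Apoc1, Hsd3b2, Akr1cl, Sparcl1, Hk1, Ahnak and Selenbp1. Serpina3g, a serine protease inhibitor, was nearest, at a root mean square difference of 0.67, with pair ratios of -0.63, 1.44, -0.64 and -0.32. Apoc1, an apolipoprotein, was at 0.67 with -0.14, 1.53, -1.06 and -0.50. Hsd3b2, another 3-beta-hydroxysteroid dehydrogenase, was at 0.73 with -0.63, 1.38, -0.77 and -0.81. Akr1cl, of the aldo-keto reductase family, was at 0.74. The first 5 lay nearer to Insl3 than Ptgds (0.80), and Hk1, the hexokinase gene at 0.81, lay nearer than Lyz2 (0.82). By the levels in the 8 mice, 7 of these 8 genes were again the nearest and Ctss took the place of Hk1, whose level in vehicle mouse 4 was 9.33, its lowest but for DEHP mouse 3. Selenop, Agt, Fabp3 (0.58) and Hsd3b1 (0.64) were the 4 nearest of all. Selenbp1, a selenium-binding protein gene at 0.87, had 0.19, 1.44, -0.80 and -0.18.

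Genes moving opposite to Insl3 did so less closely. The 4 nearest to its mirror image were Bub3, Rapgef3, Ankrd44 and Vpreb3, at 1.01 to 1.09. Bub3, a gene of the spindle checkpoint, had 1.05, -0.99, 0.11 and -0.021. Rapgef3, an exchange factor that responds to cyclic AMP, had 0.85, -0.57, 0.61 and 0.63, with the sign of Insl3 on 0 of 8 arrays.

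Of 29 other Leydig cell and steroidogenic genes, 22 were kept, and 0 passed the test in either direction. Their median ratios in pairs 1 to 4 were 0.061, 0.091, 0.031 and 0.0020, and their median range was 0.43, beside 0.39 over all probes. A range of at least 1 log2 unit held for 5 of the 22 and for 5.93% of kept probes. These 5 were Star, Sult1e1, Vcam1, Gstm1 and Apoe. Vcam1 had -0.14, 1.08, -0.33 and -0.026, Gstm1 had 0.17, 0.83, -0.53 and -0.039, and Apoe had -0.46, 0.18, 0.097 and 0.62. The sign of Insl3 in all 4 pairs held for 5 of the 22 (22.7%): Star, Cyp17a1, Prlr, Sult1e1 and Vcam1. Over all other kept probes it held for 7.32%. The count takes no account of size: Prlr matched with ratios near 0, at -0.023, 0.054, -0.042 and -0.069. Star, which brings cholesterol into mitochondria, had -0.24, 0.97, -0.79 and -0.10. Sult1e1, an oestrogen sulphotransferase, had -0.11, 0.80, -0.62 and -0.24. Cyp17a1, the enzyme that makes androgens from progestins, was well above background in 16 of 16 channels and had -0.0019, 0.070, -0.24 and -0.29, a range of 0.36. Cyp11a1, which cleaves the cholesterol side chain, and Lhcgr, the LH receptor, were well above background in 0 of 16 channels, Hsd17b3, which makes testosterone, in 1, and Hsd3b6 in 4. The mean log2 level of the 22 genes was 8.86 to 8.97 in the DEHP mice and 8.74 to 8.91 in the vehicle mice. The part of Leydig cell RNA in the swing of Insl3 and Hsd3b1 was not tested.

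Among 23 macrophage and leukocyte markers, 17 were kept, 0 passed the test and 0 had the sign of Insl3 in all 4 pairs. Ctss, a cysteine protease of lysosomes, had -0.14, 0.93, -0.93 and 0.43, and C1qc, a chain of complement C1q, had -0.19, 0.75, -0.72 and 0.25. Their ranges, 1.86 and 1.47, were the largest of the list. The signs of Lyz2 in all 4 pairs held for 5 of the 17: Ctss, C1qc, Mrc1, Csf1r and Ptprc. Over all other kept probes they held for 5.1%. This count takes no account of size. The ranges of Mrc1, Csf1r and Ptprc were 0.50, 0.24 and 0.25, beside a median of 0.39 over all kept probes. Adgre1, a surface marker of macrophages, had -0.27, -0.19, -0.087 and 0.063. Csf1r, the receptor of macrophage colony-stimulating factor, had -0.12, 0.052, -0.19 and 0.031. Cd68 was well above background in 4 of 16 channels, and C1qa and Itgam in 0. The list's mean level was 7.35 to 7.54 in the DEHP mice and 7.38 to 7.51 in the vehicle mice, and its median range was 0.25. The part of macrophage RNA in the swing of Lyz2 was not tested.

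**Figure D4:**
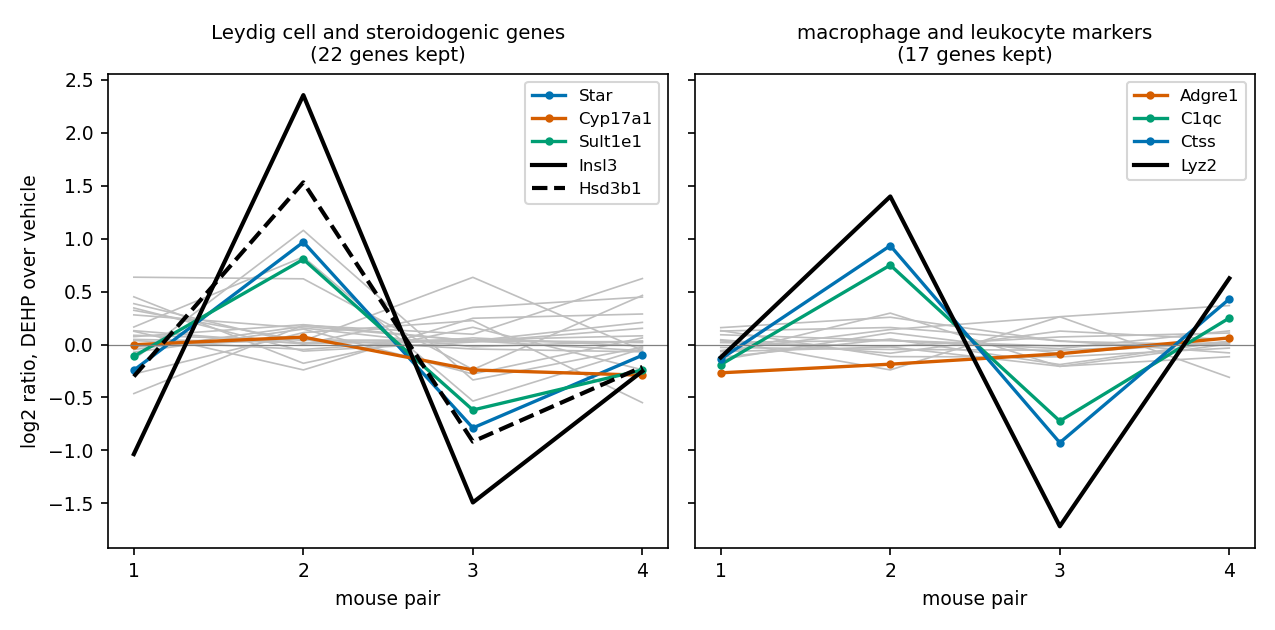
Lines join the 4 pair ratios (log2, DEHP over vehicle) of each kept gene of the Leydig list on the left (22 genes) and the macrophage list on the right (17 genes), with Insl3, Hsd3b1 and Lyz2 in black, 6 named list genes in colour and the others in grey. Star and Sult1e1 peak in pair 2 with Insl3 and Hsd3b1 while Cyp17a1 stays within 0.36, and Ctss and C1qc have the signs of Lyz2 in every pair.

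The relatives of each gene by family or pathway were then read in the same way. In the relaxin family and its receptors, 6 of 9 genes were kept, 0 passed the test, 0 had the sign of Insl3 in all 4 pairs and the largest range was 0.69. Insl6, an insulin-like peptide of germ cells, had 0.19, 0.028, -0.010 and 0.023. Rxfp2, the receptor of INSL3, had -0.14, 0.17, 0.16 and 0.41. Rln1 was well above background in 2 of 16 channels. Of 6 other 3-beta-hydroxysteroid dehydrogenases, 4 were kept, 0 passed the test and only Hsd3b2 had the sign of Insl3 in all 4 pairs. Hsd3b5 had the next largest range of these, at 0.60.

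Of 30 genes of selenium supply and selenoproteins, 27 were kept, 0 passed the test and 1 (Sephs1) had the sign of Insl3 in all 4 pairs. Its 2 genes with a range of at least 1 were Selenbp1, described above, and Txnrd1, a thioredoxin reductase gene, at 1.01. Gpx4, a glutathione peroxidase of sperm, had 0.30, 0.20, 0.18 and 0.022. Lrp8, the receptor that takes up selenoprotein P in testis, had -0.080, -0.14, -0.15 and -0.074. Gpx3 was well above background in 0 of 16 channels. Of 18 genes of fatty acid binding and uptake, 9 were kept, with 0 passing the test and a largest range of 0.79. Fabp9, the form of spermatids, had -0.48, 0.26, -0.12 and 0.21, and Fabp5 was well above background in 0 channels.

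In the prostaglandin D pathway and lipocalins, 11 of 19 genes were kept and 0 passed the test. Hpgd, which breaks down prostaglandins, had the largest range, 1.40, with 0.27, 0.53, 0.25 and -0.88. Lcn2 had -0.19, 0.88, -0.48 and 0.11. Hpgds was well above background in 0 channels and Ptgs1 in 2. Of 14 genes of the renin-angiotensin system, 10 were kept and 0 passed. Agtr1a, an angiotensin receptor, had -0.47, -0.36, -0.52 and 0.77, and Ace, the converting enzyme, had 0.31, 0.24, -0.14 and 0.27. Ren1, which cleaves angiotensinogen, had 0.45, -0.18, 0.16 and -0.24, and Agtr2 was well above background in 0 channels. Of 7 lysozyme-like genes, 6 were kept and 0 passed. Spaca3, a lysozyme-like protein of sperm, had 0.25, 0.14, -0.14 and -0.34.

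Over all lists together, 180 genes were kept and 12 (6.67%) had the sign of Insl3 in all 4 pairs, where the share over all probes was 7.32%. Markers of other cells were described in the same way. Of 25 Sertoli cell markers, 22 were kept, 0 passed the test, 2 had the sign of Insl3 (Cldn11 and Inhbb) and the median range was 0.48. Gata4 was well above background in 2 of 16 channels and Espn in 3. Clu had 0.18, 0.33, -0.13 and 0.042, and Sox9 had 0.40, 0.22, -0.14 and -0.18. Of 10 peritubular myoid markers, 8 were kept, and Acta2, smooth muscle actin, had 0.33, 0.61, -0.56 and -0.38. Myh11 had -0.23, 0.11, 0.59 and 0.21. Of 14 endothelial and blood markers, 9 were kept, and Pecam1 was well above background in 0 channels. Of 16 spermatid markers, 16 were kept, with a median range of 0.89, the widest of the 14 lists, and none (0) had the sign of Insl3 in all 4 pairs. Of 19 spermatocyte and spermatogonia markers, 16 were kept and 3 (18.8%) had that sign: Hormad1, Smc1b and Kit.

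In the authors' deposited table of log2 ratios, 5 of the 7 genes had values and Insl3 and Lyz2 had none in the rows used here. The authors' deposited table gave Agt -0.67, 2.48, -0.77 and -0.33 in pairs 1 to 4. The authors' deposited table gave Hsd3b1 -0.35, 1.91, -1.08 and -0.24. Pair 2 was the highest pair in that table for 5 of 5 genes.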

How the data were processed

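Amplified RNA of 8 mice was hybridised to 8 Agilent 2-colour arrays whose design uses mm7, per the file headers. The intensity of each spot and its background, and the log10 ratio of Cy5 over Cy3, were deposited as Agilent Feature Extraction 9.5.1.1 output, per the file headers. A table of log2 ratios was deposited besides, and the submitters' processing notes name limma, without a version. The rows of that table follow the order of spots: its values correlated at 0.943 to 0.972 with the scanner log ratios turned to DEHP over vehicle, so that is its direction, and its array medians are near 0. How its values were normalised is not given in the sources used here.

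Here, spots were background-corrected by normexp with an offset of 50 in limma 3.58.1 (R 4.3.3) and normalised within arrays by loess. On 3 arrays, 8 to 12 spots with a local background over 200 drove the normexp fit and added 71.6 to 625 intensity units to all spots. These spots were left out after the data had been seen, and the fit on all spots is an alternative. Outlier spots (154 to 209 per array) were left out. Probes well above background in at least 4 of 8 channels of DEHP or vehicle were kept. Ratios were turned to DEHP over vehicle by the dye labels, and the 2 arrays of a pair were averaged to 1 value. Levels by mouse used loess and Aquantile. limma tested 4 pair values with Benjamini-Hochberg adjustment over all kept probes, and the code was tested on simulated data. Ratios and likeness are on the log2 scale, and the offset pulls dim probes towards 0.

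Each gene is shown by its brightest kept probe. Genes outside the set were named by a rule: the 8 with the smallest root mean square difference from Insl3 over the 8 array ratios, and the 4 nearest to its mirror image. Examples from the lists were picked after their values had been seen. The genes and lists were chosen with earlier results of these data known. Gene names were updated through RefSeq by accession for 22951 probes, by symbol for 6659 and by synonym for 3109, and 8455 were not matched. Alternatives varied background correction, normalization, filter, dye orientation, pairs, blocking and source of the ratios.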

Additional observations from a re-analysis of the deposited data

Results flagged for a closer look

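In 1 of 21 groups of 4 values examined (the pairs, the DEHP mice and the vehicle mice for each of the 7 genes), a value stood apart from the others by Dixon's ratio. The Agt log2 ratio in pair 2 was 2.18, and its gap to the next pair was 0.860 of the whole range, above Dixon's critical value for 4 values. Chance puts about 1 in 20 unselected, independent groups past this value. These genes were chosen from the same ratios and the groups share mice, so that rate does not apply and no conclusion is drawn.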

How the results depend on the processing

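No probe passed an adjusted p of 0.05 in limma under any setting (0 of those tested). Of the 22971 kept probes, 1190 had an unadjusted limma p under 0.05 in the main fit. Under other settings on these same probes the count ran from 716 (without pair 3) to 2738 (DEHP in Cy3 alone). In the authors' deposited ratios it was 704 of 15063 probes. As separate channels with the pair as a replicate block, the fit repeats the pair ratios, so its counts (0 and 1190) are no separate check. With no replicate block, 0 passed and 820 had an unadjusted limma p under 0.05. Insl3 ranked 1 in range except under Agilent's processed ratio (87) and without pair 2 (353, range 1.24), and its SD was 0.627 to 2.10 with a pair left out. Without pair 2, the mean ratio of Insl3 was -0.93, and without pair 3 it was 0.36. Genes of the lists with the sign of Insl3 in every pair numbered 12, and 19 to 34 with a pair left out, where fewer pairs had to match. Of the 6 other genes, 3 shared the sign under median centring or with DEHP in Cy5 alone, and 5 without pair 1 or pair 4, beside 4. With normexp fitted on all spots, added after the data were seen, the pair 2 ratio was 2.23 for Insl3 and 0.58 for Hsd3b1. None of the 7 genes had another kept probe, so that alternative could not be run for them; for the lists, the mean of all kept probes gave 13 in place of 12.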
